A study of Mus musculus with 7 samples.

Results

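The nuclear genes of oxidative phosphorylation (OXPHOS) were followed in C2C12 myoblasts depleted of lnc-SMaRT. The members are the 80 rows, of 11642 in the expression table, whose symbol begins with Ndufa, Ndufb, Ndufc, Ndufs or Ndufv (complex I, 37 rows), Sdha to Sdhd (complex II, 4 rows), Uqcr (complex III, 8 rows), Cox4i, Cox5, Cox6, Cox7 or Cox8 (complex IV, 14 rows) or Atp5 (complex V, 17 rows). Assembly factors named Ndufaf or Sdhaf and pseudogenes were left out. The rule is by gene name and sets no threshold on a measured value. C2C12 is an established line of mouse myoblasts that leaves the cell cycle and fuses into myotubes when serum is withdrawn, and lnc-SMaRT is a long non-coding RNA of these differentiating cells. Total RNA was sequenced on day 2 of differentiation from 2 samples treated with a scramble siRNA (si-SCR 1 and 2) and 2 samples treated with siRNA #1 against lnc-SMaRT (si-SMaRT 1 and 2). By the study's account 2 independent cell populations were used, and whether each population gave both a control and a depleted sample is not given in the labels. No second siRNA was sequenced. In a separate pull-down experiment, RNA recovered with lnc-SMaRT probes (set #1), RNA recovered with LacZ probes and the input gave 1 library each.

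Oxidative phosphorylation passes electrons from NADH (through complex I) and from succinate (through complex II) to ubiquinone, then through complex III and cytochrome c to complex IV, where oxygen is reduced, and the proton gradient that results drives ATP synthesis by complex V. Complexes I, III, IV and V mix subunits of mitochondrial and nuclear genes, whereas complex II is made of nuclear gene products alone. Myoblasts that differentiate build up mitochondria, and muscle cells replace some ubiquitous subunits of complex IV by muscle isoforms, of which Cox6a2, Cox7a1 and Cox8b are the classic examples. Reads on the mitochondrial genome had been removed by the authors, so the mitochondrially encoded subunits are not analysed here.

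The targeted gene was read first. Lnc-SMaRT was at 19.1 and 15.9 RPKM (reads scaled to gene length and library size) in si-SCR 1 and 2 and at 2.88 and 3.65 RPKM in si-SMaRT 1 and 2. Both depleted samples were far below both controls, with a log2 fold change of -2.39 (SE 0.28, limma on log2(RPKM + 0.1), Benjamini-Hochberg adjusted p = 0.000882). The effective library sizes were between 11291255 and 14312935 reads. By the study's read counts, si-SMaRT 1 lost a larger share of its read pairs to the rRNA and tRNA filter than the other samples did. The samples of a group did not behave alike, as the si-SMaRT 2 minus si-SMaRT 1 difference of a gene followed the GC content of its exons across all genes (Spearman rho -0.85 over 10865 genes of these libraries). Most differentiation markers were lower after the depletion. Of 12 markers of differentiating muscle, 9 were lower and 1 (Myh8) was higher in both si-SMaRT samples than in both controls. Over all genes tested, 20.4% were lower and 2241 of 11086 higher by the same rule. Myod1 (log2 fold change 0.26) and Actn2 (-0.29) overlapped between the groups. The summed RPKM of the 12 markers was 17685 and 16315 in si-SCR against 10741 and 7749 in si-SMaRT. The sum of all tested genes differed by -19.1% between the group means. None of these 12 passed an adjusted p of 0.05 by limma (6 had an unadjusted p under 0.05), and the lowest of them was Ckm, muscle creatine kinase, at a log2 fold change of -1.25. Of 8 markers of proliferating myoblasts, 7 had a row, of which 4 had a log2 fold change above 0 and 3 below. The 2 that passed were Id3 and Ccnd1, both higher in si-SMaRT. Id2 was lower in both depleted samples than in both controls (-0.58, limma adjusted p = 0.579). Of 8 markers of other cell types a single row was present, Cd68, at 0.788 to 1.13 RPKM.

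OXPHOS transcripts were abundant in all 4 samples. The mean RPKM of a member over both si-SCR samples ran from 2.08 (Atp5sl) to 641 (Atp5b), with a median of 104 against 6.91 for all rows of the table. Behind these values were 23 to 38109 reads per member and sample, and 77 of the 80 members had at least 100 reads in every sample. Levels between members rest on the gene length used by the authors, which was 101 bases for Cox6b1 as worked out from its values and 9578 for the row that joins Adck2 and Ndufb2, so the order of these members by RPKM is uncertain. All 80 members passed the minimum mean RPKM of 0.5 and were tested.

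Most of the OXPHOS genes were lower in the depleted samples, by a small amount, and only 2 passed the test. The log2 fold change was below 0 for 78 of 80 members, against 47.7% of the 11086 genes tested, and its median was -0.34 against 0.02 for all genes. Both si-SMaRT samples were below both si-SCR samples for 55 members, against 20.4% of all genes, and for no member were both above. An unadjusted p under 0.05 was reached by 15 members (9.09% of all genes), and an adjusted p under 0.05 by 2 members, Cox8b and Cox7a1, both lower (0.505% of all genes passed in either direction and 0.325% passed as lower). With voom on the whole reads worked out from the RPKM values, 1 member passed, Cox8b. The spread between controls was of similar size, as the median si-SCR 2 minus si-SCR 1 difference was -0.28 over the members and 0.0089 over all genes. Of the members, 74 were higher in si-SCR 1 than in si-SCR 2. Relative to the mean of both controls, the median member stood at 0.14 and -0.14 in the controls themselves and at -0.40 and -0.38 in the depleted samples, on the log2 scale and in replicate order. In bulk RNA, fewer differentiated cells and less RNA of these genes per cell cannot be told apart.

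**Figure D1:**
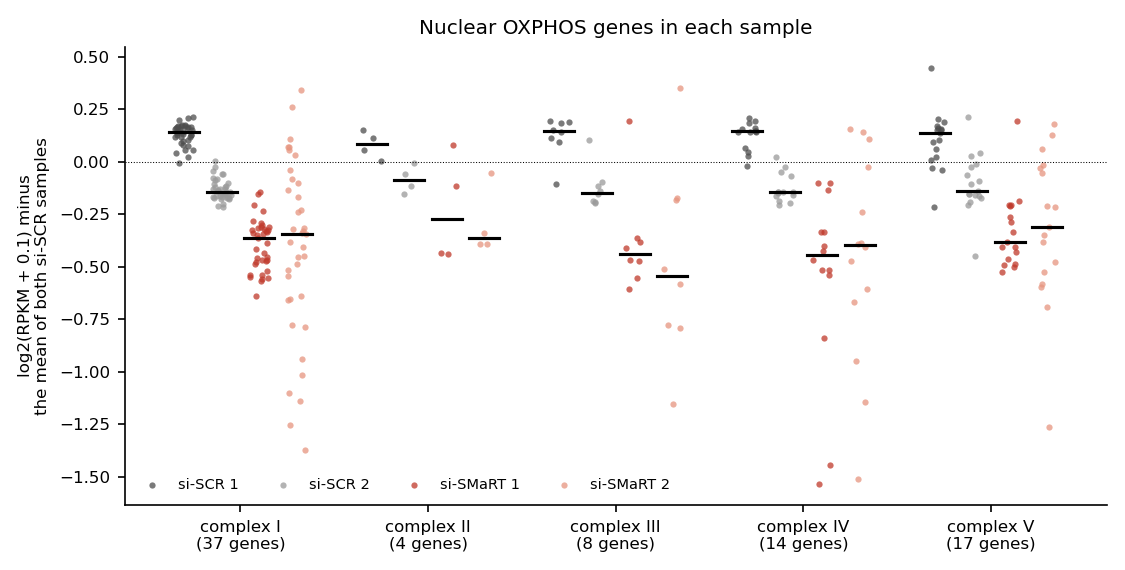
Each point is 1 OXPHOS gene in 1 sample, grouped by complex (x axis); the y axis is log2(RPKM + 0.1) minus the mean of both si-SCR samples, and black bars are medians. The medians of the si-SMaRT samples lie at -0.27 to -0.55 and those of the controls at -0.15 to 0.15, with the widest scatter in si-SMaRT 2.

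The depleted samples reached this lower level in different ways. In si-SMaRT 1 the shift was nearly uniform in direction but not in size, with 77 members below both controls. Relative to the control mean, its log2 differences ran from -1.54 (Cox8b) to 0.20 (Uqcrc1). In si-SMaRT 2 the members spread widely, with 58 below both controls and 6 above both. The medians over all genes were -0.0037 in si-SMaRT 1 and 0.02 in si-SMaRT 2, and these counts were not made over all genes. The most frequent order of the samples, si-SCR 1 above si-SCR 2 above si-SMaRT 1 above si-SMaRT 2, was found for 35 members (43.8%, against 8.93% of all genes). The spread of si-SMaRT 2 followed GC content among the members as well (rho -0.66 between GC content and the si-SMaRT 2 minus si-SMaRT 1 difference, 79 members of the same libraries). Of the 40 members with a GC content at or over the members' median, 35 were lower in both si-SMaRT samples, against 19 of the 39 members with less GC, and the median log2 fold changes were -0.42 and -0.28. Across all genes the log2 fold change also followed GC content (rho -0.31 over 10865 genes). The split by GC content was not made over all genes, so it does not set the members apart. With the GC trend of every sample removed, the median over the members was -0.34, with 77 of 79 below 0.

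**Figure D2:**
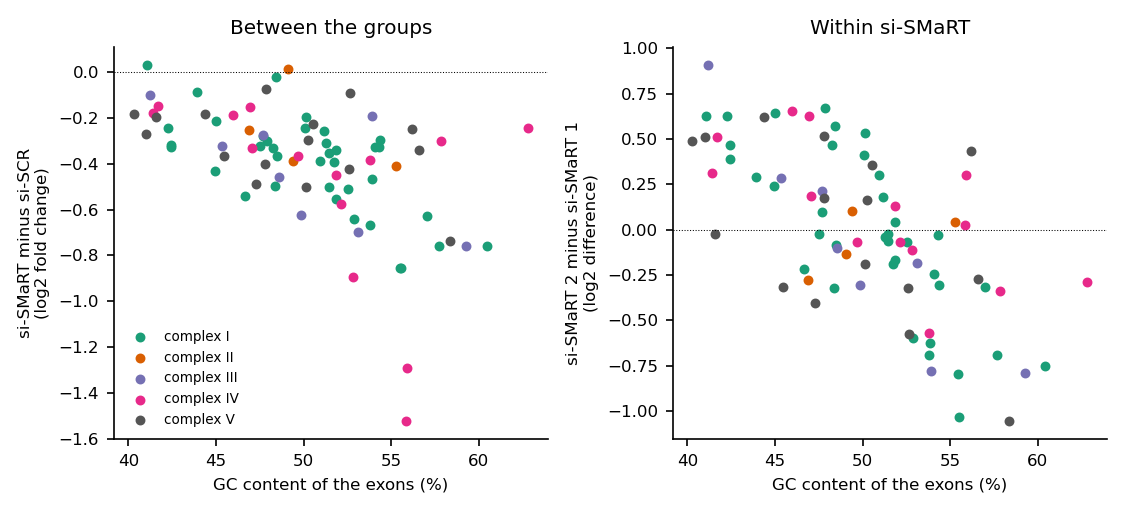
Points are the 79 OXPHOS genes with a GC content, coloured by complex; the x axis is the GC content of the exons in percent, and the y axes are the log2 fold change of si-SMaRT against si-SCR (left) and the log2 difference between the si-SMaRT samples (right). Genes rich in GC were lower in si-SMaRT 2 than in si-SMaRT 1 and genes poor in GC higher, with rho -0.66 on the right and -0.56 on the left.

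Complex IV held both members that passed the test, and both are muscle isoforms. Cox8b, the heart and skeletal muscle isoform of the small subunit 8 (chr7:140898945-140900446, minus strand, GRCm38), was at 114 and 93.2 RPKM in si-SCR 1 and 2 and at 35.5 and 36.1 RPKM in si-SMaRT 1 and 2. The 2 depleted samples were nearly equal and lay far below the controls, with means of 104 ± 14.6 and 35.8 ± 0.436 RPKM (SD, n = 2 each). Cox8b fell by 1.52 on the log2 scale (SE 0.26, limma adjusted p = 0.0133). Cox7a1, the muscle isoform of subunit 7A (chr7:30184144-30186078, plus strand), was at 17.2 and 13.8 RPKM in the controls and at 5.60 and 6.91 RPKM in the depleted samples. The groups did not overlap, but only 23 to 79 reads stood behind each value. Cox7a1 fell by 1.29 on the log2 scale (SE 0.28, limma adjusted p = 0.0454). Without si-SCR 1 or without si-SCR 2 neither gene passed the test, at adjusted p-values of 0.919 and 0.260 for Cox8b and 1.00 and 0.774 for Cox7a1, while the log2 fold changes stayed between -1.14 and -1.67. With the length trend of every sample removed, no gene of the table passed by limma (800 of 10865 had an unadjusted p under 0.05), and the log2 fold changes were -1.18 for Cox8b and -0.85 for Cox7a1.

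Cox6a2, the third muscle isoform and the heart and muscle form of subunit 6A (chr7:128205435-128206387, minus strand), was at 60.7 and 45.5 RPKM in si-SCR and at 29.3 and 27.2 RPKM in si-SMaRT. It too was lower in both depleted samples, at a log2 fold change of -0.89 (SE 0.27), and did not pass (limma adjusted p = 0.211). With the GC trend removed it did (log2 fold change -0.80, limma adjusted p = 0.0417), in a fit where 535 of 10865 genes passed. It did not pass with a replicate block added to that fit (limma adjusted p = 0.101). With the length trend removed the log2 fold change was -0.44 (limma adjusted p = 0.744), and with GC and length trends removed it was -0.36 (limma adjusted p = 0.137). The ubiquitous partners differed less between the groups. Cox8a was at 573 and 523 RPKM in si-SCR and 500 and 395 in si-SMaRT (log2 fold change -0.30, SE 0.28). Cox7a2 was at 255 and 209 RPKM against 172 and 196 (-0.33, SE 0.27). Cox6a1 was at 202 and 208 RPKM against 192 and 157 (-0.24, SE 0.27). None of these 3 passed the test, at adjusted p-values of 0.801 to 0.857, although each was lower in both depleted samples.

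Set against its partner in the same sample, each muscle isoform took a smaller share after depletion. The RPKM of Cox8b was 19.9% and 17.8% of that of Cox8a in the controls and 7.10% and 9.14% in the depleted samples. For Cox7a1 the values were 6.71% and 6.59% of Cox7a2 against 3.25% and 3.53%. For Cox6a2 they were 29.998% and 21.8% of Cox6a1 against 15.3% and 17.4%. The groups did not overlap in any of the 3 pairs, and the log2 ratios were lower by 1.22, 0.96 and 0.65 in the same order. The exact permutation test of each difference gave p = 0.333 (two-sided), which is the smallest value that 2 against 2 samples allow. The differences had the same sign after removal of the GC and length trends, at -1.34, -0.72 and -0.68. Between the groups, the share of these isoforms and the sum of the 12 muscle markers given above were both lower after depletion. Within si-SMaRT they went opposite ways. The marker sum was 10741 in si-SMaRT 1 and 7749 in si-SMaRT 2, while all 3 shares were higher in si-SMaRT 2. The part of a change in differentiation in the lower shares was not tested. No rows of Cox4i2, Cox6b2 or Ndufa4l2 were in the table, and these isoforms are not analysed here.

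**Figure D3:**
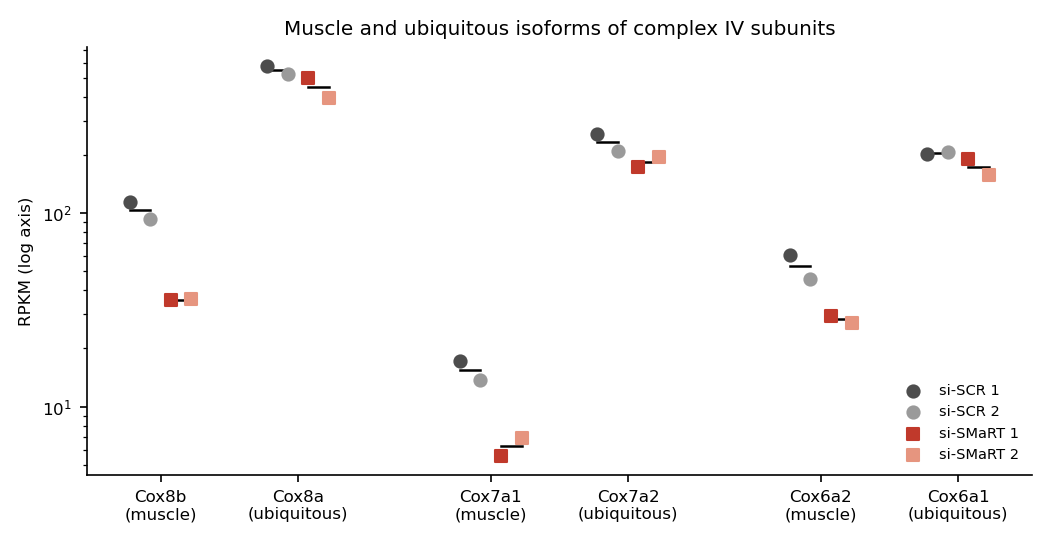
RPKM on a log axis for the muscle and ubiquitous isoforms of 3 complex IV subunits; points are single samples and black lines the means of 2. The muscle isoforms Cox8b, Cox7a1 and Cox6a2 lie lower in both si-SMaRT samples by more than their partners do.

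The promoters of Cox8b and Cox7a1 differ from those of their partners in base composition, and no promoter of Cox6a2 was at hand. These promoters are shown because the muscle isoforms, which fell, and their partners, which differed less, can be compared there letter by letter. Each run goes from 250 bases before to 50 bases after the RefSeq start (GRCm38.p6). Capitals mark the E-box CAGCTG, a site bound by myogenic factors such as MyoD, and the E-box was added to the search after the values had been seen.
Cox8b (chr7:140900397-140900696, minus strand): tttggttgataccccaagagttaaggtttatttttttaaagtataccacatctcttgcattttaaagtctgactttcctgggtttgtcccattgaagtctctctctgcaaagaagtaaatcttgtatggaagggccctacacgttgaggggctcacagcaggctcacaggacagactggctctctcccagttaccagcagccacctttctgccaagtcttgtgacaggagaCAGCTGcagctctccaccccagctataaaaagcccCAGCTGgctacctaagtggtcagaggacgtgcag
Cox8a (chr19:7217567-7217866, minus strand): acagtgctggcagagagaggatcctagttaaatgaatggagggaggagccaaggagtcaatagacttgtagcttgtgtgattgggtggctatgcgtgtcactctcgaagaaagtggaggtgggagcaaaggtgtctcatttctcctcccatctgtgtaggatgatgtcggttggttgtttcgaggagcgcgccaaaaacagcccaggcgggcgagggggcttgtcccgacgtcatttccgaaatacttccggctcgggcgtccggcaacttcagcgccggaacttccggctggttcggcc
Cox7a1 (chr7:30183921-30184220, plus strand): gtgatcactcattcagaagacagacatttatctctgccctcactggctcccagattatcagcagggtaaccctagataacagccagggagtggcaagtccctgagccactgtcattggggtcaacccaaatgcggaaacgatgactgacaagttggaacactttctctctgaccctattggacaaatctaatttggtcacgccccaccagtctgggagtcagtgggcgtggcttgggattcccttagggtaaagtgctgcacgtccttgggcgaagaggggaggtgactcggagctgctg
Cox7a2 (chr9:79759804-79760103, minus strand): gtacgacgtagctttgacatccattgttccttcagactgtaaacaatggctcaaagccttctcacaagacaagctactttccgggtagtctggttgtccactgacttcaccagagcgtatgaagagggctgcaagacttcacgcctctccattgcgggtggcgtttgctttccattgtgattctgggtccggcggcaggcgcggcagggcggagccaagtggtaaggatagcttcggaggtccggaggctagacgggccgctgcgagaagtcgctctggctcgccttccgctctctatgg
The Cox8b promoter held 2 copies of the E-box, and the other 3 held none. It had 2 CpG dinucleotides, the fewest of the 68 member promoters at hand, and the Cox7a1 promoter had 7, against 19 for Cox8a, 20 for Cox7a2 and a median of 19.5 over the 68. Low CpG was not limited to muscle isoforms, as the promoter of the ubiquitous Cox7b had 5 and that of Ndufc2 of complex I had 8. The median over 17491 promoters of coding genes was 13.

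The remaining 11 subunits of complex IV were lower by less, and each had a log2 fold change below 0, with a median of -0.30. Cox4i1, the ubiquitous subunit 4 that binds ATP as a regulator, was at 280 and 270 RPKM in si-SCR and at 256 and 173 in si-SMaRT (log2 fold change -0.38, SE 0.28). Cox6b1, the subunit that links the monomers of the complex IV dimer, was at 653 and 537 RPKM against 414 and 452 (-0.45, SE 0.28). Both lay lower in the depleted samples without overlap, at limma adjusted p-values of 0.762 and 0.686. The smallest differences in the complex were those of Cox6c and Cox7b, small membrane subunits, at -0.15 each. Their values overlapped between the groups: Cox7b was at 251 and 192 RPKM in si-SCR and at 166 and 236 in si-SMaRT. Cox6c was at 139 and 113 RPKM against 90.9 and 140. In both genes si-SMaRT 1 was the lowest of the 4 samples.

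In complex I, the entry point for NADH, 36 of 37 members had a log2 fold change below 0 and the median was -0.34, while none passed an adjusted p of 0.05 by limma or voom and 7 had an unadjusted p under 0.05 by limma. The lowest were Ndufv1 and Ndufs7, both core subunits that carry redox groups. Ndufv1, the flavoprotein where NADH is oxidized, was at 90.6 and 79.0 RPKM in si-SCR and at 61.6 and 35.4 in si-SMaRT. The log2 fold change of Ndufv1 was -0.85 (SE 0.29, limma adjusted p = 0.297). With the GC trend removed it was -0.71 (limma adjusted p = 0.0430), in a fit where 535 of 10865 genes passed. With a replicate block added to that fit, no OXPHOS gene passed. Ndufs7, the iron-sulfur subunit next to the ubiquinone site, was at 47.8 and 42.9 RPKM against 35.8 and 17.4 (-0.85, SE 0.31, adjusted p = 0.343 by limma). Most of the difference came from si-SMaRT 2 in both genes, which are rich in GC (55.5% each). Without si-SMaRT 2 their log2 fold changes were -0.46 and -0.34.

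Only Ndufa4 of complex I lay above 0. Ndufa4, named for complex I and since described as a subunit of complex IV, was the most abundant member of this name group, at 628 and 499 RPKM in si-SCR and at 460 and 711 in si-SMaRT (log2 fold change 0.03, SE 0.30). Ndufb6, an accessory subunit of the membrane arm, was at 128 and 114 RPKM against 97.4 and 145 (-0.02, SE 0.28). In each gene si-SMaRT 1 was the lowest sample and si-SMaRT 2 the highest, so the mean hides opposite deviations. The other 33 members of complex I had log2 fold changes between -0.76 (Ndufa13) and -0.09 (Ndufab1, the mitochondrial acyl carrier protein).

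Complex II, succinate dehydrogenase, had 4 members and none passed the test by limma or voom, at limma adjusted p-values of 0.691 to 0.992 and with 0 at an unadjusted p under 0.05. Sdha, the flavoprotein that oxidizes succinate, was at 53.7 and 49.6 RPKM in si-SCR and at 47.7 and 39.3 in si-SMaRT (log2 fold change -0.25, SE 0.26). Sdhb, the iron-sulfur subunit, was at 76.8 and 65.6 RPKM against 52.5 and 54.1 (-0.41, SE 0.26). Sdhd, a membrane anchor, was at 146 and 118 RPKM against 96.9 and 104 (-0.39, SE 0.27). These 3 genes were lower in both depleted samples than in both controls. The other anchor, Sdhc, was at 38.1 and 37.9 RPKM against 40.2 and 36.7 (0.01, SE 0.26), so the anchors of the same complex stood at different sides of 0. The difference between Sdhc and Sdhd was not tested.

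In complex III, which oxidizes ubiquinol and reduces cytochrome c, all 8 members had a log2 fold change below 0, with a median of -0.39, and none passed by limma or voom (3 had an unadjusted p under 0.05 by limma). Uqcr11, a small subunit of the membrane part, was the most abundant at 503 and 407 RPKM in si-SCR and at 352 and 203 in si-SMaRT (log2 fold change -0.76, SE 0.31, limma adjusted p = 0.424). Uqcr10, its small neighbour, was at 485 and 371 RPKM against 278 and 245 (-0.70, SE 0.28, limma adjusted p = 0.412). Both were lower in each depleted sample. At the other end, Uqcrb, a subunit that takes part in ubiquinone binding, was at 192 and 147 RPKM against 114 and 215 (-0.10, SE 0.31). Uqcrc1, a core protein on the matrix side, was at 32.4 and 37.5 RPKM against 39.9 and 23.2 (-0.19, SE 0.29). These values overlapped, and the samples that were high in Uqcrb were low in Uqcrc1, which have GC contents of 41.2% and 53.9%.

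Complex V, the ATP synthase, had 17 members by the name rule, with log2 fold changes below 0 and a median of -0.30. None passed the test by limma or voom (1 had an unadjusted p under 0.05 by limma). Atp5sl and Atp5s are listed by RefSeq as Dmac2 and Dmac2l, and were counted here by their older names only. Atp5d, the delta subunit of the rotating central stalk, was at 141 and 147 RPKM in si-SCR and at 125 and 59.8 in si-SMaRT (log2 fold change -0.74, SE 0.32, limma adjusted p = 0.482). The groups did not overlap, but si-SMaRT 2 stood far below the other 3 samples. Atp5b, the catalytic beta subunit and the most abundant OXPHOS transcript, was at 646 and 636 RPKM against 556 and 446 (-0.36, SE 0.28). Atp5j2, the f subunit of the membrane part, was at 174 and 134 RPKM against 115 and 101 (-0.50, SE 0.27). Both genes were lower in both depleted samples, at limma adjusted p-values of 0.781 and 0.610. The smallest differences were those of Atp5j, coupling factor 6 of the stalk (45.7 and 40.2 RPKM against 34.01 and 48.7, -0.08), and Atp5sl (1.76 and 2.40 RPKM against 2.37 and 1.56, -0.09), in both of which the groups overlapped.

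The c ring of complex V is encoded by 3 genes whose mature proteins are identical. Atp5g1 was at 55.6 and 45.1 RPKM in si-SCR and at 40.98 and 31.0 in si-SMaRT (log2 fold change -0.49, SE 0.27). Atp5g2, on a row joined with Mir688, was at 184 and 169 RPKM against 153 and 127 (-0.34, SE 0.27). Atp5g3 was at 163 and 173 RPKM against 148 and 145 (-0.20, SE 0.26). All 3 were lower in both depleted samples. None passed (limma adjusted p-values of 0.627, 0.784 and 0.883) and differences among the 3 genes were not tested. Across the OXPHOS genes, 27 members share at least 100 bases at 95% identity with another gene or pseudogene (Atp5g1 and Atp5g2 among them), and 4 members share a row with an overlapping gene, so reads of these may be split or mixed. The 53 members without either held both genes that passed, and 51 had a log2 fold change below 0.

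Summed over its members, the RPKM of each complex was lower in si-SMaRT. For complex I the sums were 4217 and 3508 in si-SCR and 2984 and 3253 in si-SMaRT, a difference of -19.3% between the means. For complex II they were 315 and 271 against 237 and 234 (-19.6%). For complex III they were 1802 and 1442 against 1183 and 1113 (-29.2%). In these and in the next 2 complexes the depleted samples were below both controls. For complex IV the sums were 3333 and 2851 against 2390 and 2446 (-21.8%). For complex V they were 3393 and 2998 against 2539 and 2549 (-20.4%). No difference between complexes was tested. Beside these values, the summed RPKM of all tested genes was 529525 and 478727 in si-SCR and 428751 and 387210 in si-SMaRT, a difference of -19.1%, so the sums of complexes I, II, IV and V changed by about as much as the total. On the log2 scale the sums of complexes I to V differed by -0.30, -0.31, -0.49, -0.35 and -0.33 as deposited and by -0.15, -0.21, -0.33, -0.16 and -0.14 after quantile normalization.

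Genes around the respiratory chain were less uniform. Of 92 genes in lists of other subunits and cytochrome c, assembly factors, regulators, the TCA cycle and mitochondrial carriers, 68 had a log2 fold change below 0 (median -0.20) and none passed an adjusted p of 0.05 by limma or voom, while 3 had an unadjusted p under 0.05 by limma. Assembly factors were lower in most cases, with 12 of 13 below 0 for complex I, 4 of 4 for complex II, 5 of 6 for complex III and 18 of 22 for complex IV, but 1 of 3 for complex V. For complex I they ran from Ndufaf3 (-0.49) to Ndufaf4 (0.09), for complex II from Acn9 (-0.25) to Sdhaf2 (-0.04), for complex III from Uqcc3 (-0.73) to Ttc19 (0.20), and for complex V from Atpaf2 (-0.19) to Tmem70 (0.10). In complex IV the highest was Sco1 (0.34), which delivers copper to the enzyme. The lowest of all was Coa4, an assembly factor of complex IV, at 4.88 and 3.82 RPKM in si-SCR and 2.24 and 2.40 in si-SMaRT (log2 fold change -0.87, SE 0.29, limma adjusted p = 0.278). The highest was Yy1, a transcription factor whose site, given below, was found in 10 of 68 OXPHOS promoters. Yy1 was at 13.5 and 17.1 RPKM against 19.96 and 25.9 (0.58, SE 0.27, limma adjusted p = 0.553). Coa4 was lower and Yy1 higher in both depleted samples than in both controls.

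Of the 15 regulators of mitochondrial genes with a row, which include the transcription factors Nrf1, Gabpa and Esrra and the mitochondrial factor Tfam, 10 had a log2 fold change above 0, with a median of 0.13. Esrra, on a row joined with Mir6990, was the lowest of them at 10.1 and 11.6 RPKM against 11.5 and 4.95 (-0.51, SE 0.34), with si-SMaRT 2 apart from the other 3 samples. Over all genes tested 5795 of 11086 were above 0, and the median regulator stood at 0.17 in si-SMaRT 1 and at -0.02 in si-SMaRT 2 relative to the controls. The difference between the regulators and the subunits was not tested. Of the TCA cycle, 12 of 16 genes were below 0, from Idh3g (-0.53), a subunit of isocitrate dehydrogenase, to Ogdh (0.19), of the 2-oxoglutarate dehydrogenase complex. All 6 carriers and porins were below 0, from Slc25a4, the muscle form of the ADP/ATP carrier (-0.31), to Slc25a3, the phosphate carrier (-0.01). Of the 7 other subunits and cytochrome c genes, 5 were below 0, from Cyc1, cytochrome c1 of complex III (-0.44), to Cycs, the somatic cytochrome c (0.07).

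A shift of similar size was found in gene lists outside the respiratory chain. Of 82 genes of the cytoplasmic ribosome, 74 had a log2 fold change below 0 (median -0.25), and of 77 genes of the mitochondrial ribosome, 73 (median -0.28), with none past an adjusted p of 0.05 in either list by limma or voom, and 1 and 3 at an unadjusted p under 0.05 by limma. The mitochondrial list ran from Mrps28 (-0.70) to Mrps2 (0.39). Median exon lengths were 1806 and 2596 bases in the ribosome lists and 1675 bases for the OXPHOS genes, against 4531 over all genes. Across all genes the log2 fold change went with exon length (rho 0.38 over 10865 genes of the same 4 libraries), with a rho of 0.17 over the 79 OXPHOS genes with a length. With the length trend of every sample removed, 56 of 79 OXPHOS genes had a log2 fold change below 0, with a median of -0.13, and the medians were -0.07 and -0.17 for the cytoplasmic and mitochondrial ribosome. Quantile normalization left 73 of 80 OXPHOS genes below 0 at a median of -0.22, and 45 of the 82 cytoplasmic ribosome genes at a median of -0.02. The size of the common shift thus depended on the normalization, whereas Cox8b and Cox7a1 lay at or below -0.71 under each alternative tried.

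**Figure D4:**
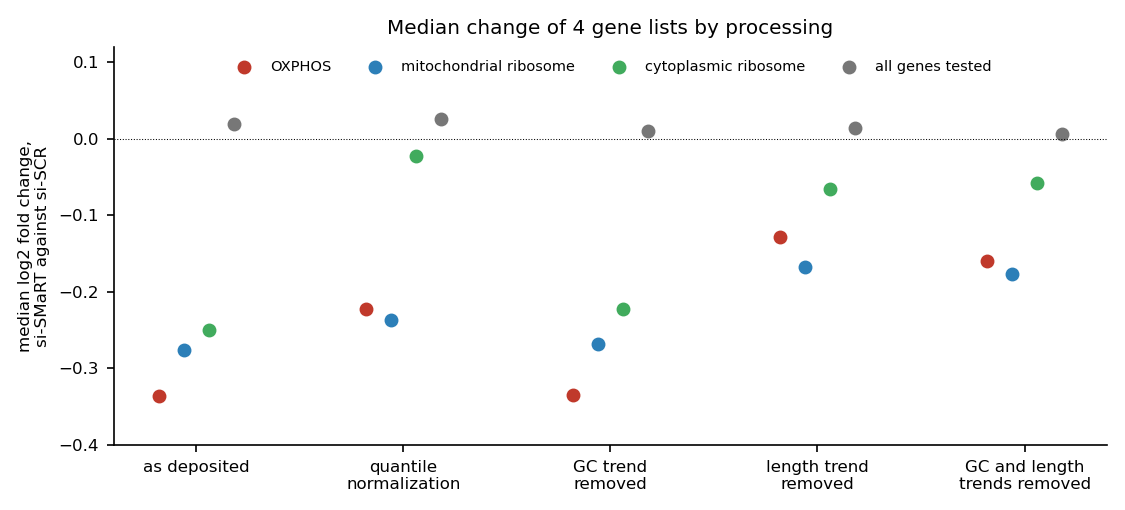
The y axis is the median log2 fold change of si-SMaRT against si-SCR for 4 sets of genes, and the x axis 5 ways of processing the same values. The median of the OXPHOS genes was -0.34 as deposited and -0.13 once the trend with gene length was removed, close to that of the mitochondrial ribosome in each case.

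Some OXPHOS promoters hold sites of factors known to control these genes, while 38 of 68 held no site of NRF1, GABPA, YY1 or ERR. In 68 promoters of members found among the RefSeq promoters, the site of NRF1 (GCGC, any base, TGCGC) was present in 16, or 23.5%, against 6.60% of 17491 promoters of coding genes. The GABPA site ACCGGAAG was in 6 (8.82% against 3.08%), the YY1 site AAGATGGC in 10 (14.7% against 3.22%) and the ERR site TCAAGGTCA in 2 (2.94% against 0.332%), with both strands searched. The E-box was in 6 (8.82% against 15.1%). These shares compare letters in windows of equal length, and the promoters of members are also richer in CpG than the rest. The Sdhd promoter is shown because it held 3 of these sites, NRF1, GABPA and ERR, marked by capitals in that order.
Sdhd (chr9:50603800-50604099, minus strand): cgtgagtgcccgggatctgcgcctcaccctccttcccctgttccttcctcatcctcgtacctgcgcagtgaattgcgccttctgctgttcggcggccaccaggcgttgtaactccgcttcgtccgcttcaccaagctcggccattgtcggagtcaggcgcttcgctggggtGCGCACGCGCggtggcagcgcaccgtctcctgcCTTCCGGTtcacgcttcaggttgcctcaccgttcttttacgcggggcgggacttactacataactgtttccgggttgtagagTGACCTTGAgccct
All 3 sites read here on the reverse strand. The 30 members with at least 1 of the NRF1, GABPA, YY1 and ERR sites had a median log2 fold change of -0.33, and the 38 with none had -0.34. The difference between these sets was not tested.

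**Figure D5:**
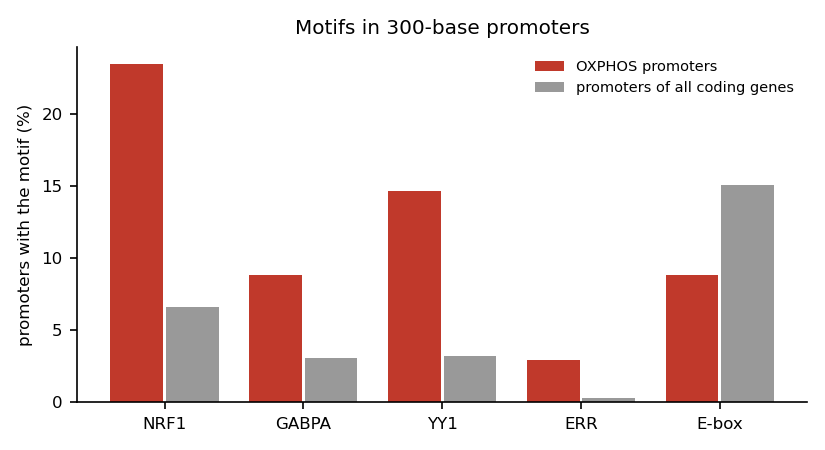
Bars give the percentage of promoters that hold each motif, for 68 promoters of OXPHOS genes (red) and 17491 promoters of coding genes (grey). The NRF1, GABPA, YY1 and ERR sites were more frequent in the OXPHOS promoters (23.5% against 6.60% for NRF1) and the E-box less (8.82% against 15.1%).

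No called peak of the lnc-SMaRT pull-down lay on these transcripts, and few lay on any gene of the table. None of the 345 peaks of the lnc-SMaRT pull-down and none of the 336 peaks of the LacZ pull-down lay on an exon of a member, by at least 1 base on the same strand. The pull-downs were sequenced in 1 library each and the lists hold called peaks only, so weaker binding was not measured. Of 11058 rows of the table with annotated exons, 65 (0.588%) held a peak of the lnc-SMaRT pull-down and 39 (0.353%) a LacZ peak by the same rule. At these shares a count of 0 in 80 members does not set them apart from other genes.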

How the data were processed

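Total RNA of C2C12 cells was sequenced in 2 si-SCR and 2 si-SMaRT samples, and pull-down RNA in 1 library for each of lnc-SMaRT, LacZ and input. The deposited values are RPKM per Ensembl 77 gene and were made by the authors: trimming with Trimmomatic, removal of rRNA and tRNA reads with Bowtie 2, TopHat2 alignment to GRCm38, removal of mitochondrial reads, strand-specific counting with HTSeq, TMM scaling, removal of genes with low CPM and the edgeR rpkm function. The deposited peak lists hold a Piranha p-value per peak in bins of 200 bases, and the covariate used is not stated in them.

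The members and the gene lists were chosen with earlier results of these data known. RPKM values were tested with limma 3.58.1 in R 4.3.3 (trended prior variance) after adding a pseudocount of 0.1 and taking log2. The 11086 rows that averaged 0.5 RPKM or more entered the fit, p-values were adjusted over all of them (Benjamini-Hochberg), and the threshold was 0.05. Fold changes on this scale understate changes of low genes. The p-values rest on the spread between 2 samples a group, moderated towards a prior variance fitted over all tested genes. They do not measure the spread of a gene's own samples alone. Whole reads behind the RPKM of 11639 rows were worked out from the step between values, within 1e-07 of a whole number, and gave the library depth and an alternative with voom; for most rows the common factor rests on the GENCODE M21 length. GC content, exon lengths and gene positions came from GENCODE M21 on GRCm38, and trends were removed with loess (span 0.3). Promoters are those of RefSeq on GRCm38.p6, 68 of 80 members matched, and near-identical copies were sought with blastn 2.17.0. Python 3.11.15 with scipy 1.17.1 and matplotlib 3.10.9 was used for the rest.

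Named genes were lnc-SMaRT, members past the threshold, the 2 highest and 2 lowest log2 fold changes of complexes I, III, IV and V, all of complex II, the most abundant member of each complex, the isoform pairs, and of other lists the genes past the threshold with the highest and lowest; Ndufa13, Ndufab1 and Ndufs1 were added after their values were seen. Alternatives were other pseudocounts and filters, quantile normalization, removal of GC and length trends, an untrended prior variance, a block for the replicate number, voom, and each sample left out. A crossed block, the authors' gene length and the members without copies were added after the values were seen. The extremes of the cytoplasmic ribosome list are not reported here.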

Additional observations from a re-analysis of the deposited data

How the results depend on the processing

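The log2 fold change of Cox8b was below 0 under all 19 alternatives (-1.67 to -1.03) and passed an adjusted p of 0.05 in 13; that of Cox7a1 ran from -1.45 to -0.71 and passed in 6. The number of OXPHOS genes past the threshold, 2 as reported, was 1 (Cox8b) with no minimum RPKM, quantile normalization, no trend in the prior variance or voom, and 0 with the length trend removed, on either length; the cause was not tested. It was 3 with the GC trend removed (Cox8b, Cox6a2 and Ndufv1) and 3 with GC and length trends removed (Cox8b, Ndufv1 and Ndufs1), where 535 and 679 genes passed in all. With each sample left out in turn it ran from 0 to 25 (25 without si-SMaRT replicate 1, 4 without si-SMaRT replicate 2, 0 without either control), where a lone sample is assumed to vary like the other group.

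The counts without a si-SMaRT sample do not set the OXPHOS genes apart, as many genes outside OXPHOS passed in those fits too. The labels do not say whether samples with the same replicate number share a cell population, and the replicate 2 minus replicate 1 differences of the groups correlated at -0.36 over all genes. With the replicate block 1 member passed (Cox8b), and 0 passed with the replicate block and the GC trend removed or with GC and length trends removed. With the crossed replicate block, chosen after seeing the data, 5 passed, where 487 of 11086 genes passed in all.

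The median log2 fold change stayed below 0 in every complex under every alternative. With the length trend removed it was -0.13 over all members and -0.16, -0.16, -0.19, -0.055 and -0.12 in complexes I to V. With GC and length trends removed, with or without the replicate block, it was -0.16 over all members and -0.19, -0.17, -0.15 and -0.10 in complexes I to IV. With the authors' gene length it was -0.16 over all and -0.12, -0.21 and -0.12 in complexes I, II and IV, and with quantile normalization -0.21 in complex II and -0.20 in complex IV. With each sample left out it ran from -0.46 to -0.24 over all members and from -0.42 to -0.22 in complex II. For the related lists together, 0 genes passed as reported, 1 with the GC trend removed, 2 with GC and length trends removed, 1 with the crossed block and 0 to 17 with each sample left out; for the cytoplasmic ribosome 0 to 9, and for the mitochondrial ribosome 0 to 13 with each sample left out and 1 with GC and length trends removed. The upper ends of these ranges come from the fit without si-SMaRT replicate 1, where a larger share of all tested genes passed. These counts do not set the lists apart from other genes. With 2 samples a group, a difference of the size of the median member is within the spread between replicates of single genes, and Cox7a1 rests on few reads.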
